A study of Homo sapiens with 7 samples.

Results

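The MCM genes encode a family of helicase subunits and relatives, and 9 of them (MCM2 to MCM10) were examined among 19970 protein-coding genes of chromosomes 1 to 22 and X. They were taken by name, and every Rb peak was counted that overlapped the promoter window, reaching 2000 bp upstream and 500 bp downstream of the start (TSS) of any of their transcripts in GENCODE 44, or that lay elsewhere within the gene. Rb, the product of RB1, was mapped by CUT&RUN, in which an antibody-directed nuclease cuts DNA around a bound protein, in the oestrogen receptor-positive breast cancer cell line ZR-75-1. Unedited parental cells received DMSO (2 libraries) or palbociclib, an inhibitor of CDK4 and CDK6, at 500 nM for 4 days (2 libraries). RB1 KO cells gave 1 library with each treatment, and 1 library of palbociclib-treated parental cells used a non-targeting IgG2a antibody. According to the study's methods the knockout lines were expanded from single sorted cells, so loss of Rb and differences between clones cannot be told apart here. The 2 libraries per parental group were biological replicates of 1 experiment. Peak lists carry no expression, so neither the loss of RB1 nor the identity of the cells could be checked from them.

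Before DNA replication, a ring of the proteins MCM2 to MCM7 is loaded onto origins in G1 and later becomes the motor of the replicative helicase. MCM10 helps to activate that helicase, while MCM8 and MCM9 form a separate complex that works in homologous recombination. Genes for replication proteins are classical targets of E2F factors, which Rb holds at promoters when CDK4 and CDK6 are inhibited.

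All 9 MCM promoters carried an Rb peak in both palbociclib libraries, compared with 34.9% of all protein-coding genes. Of the 9, MCM3, MCM4, MCM5 and MCM7 also had a promoter peak in both DMSO libraries (background 2.9%), MCM6 and MCM10 in DMSO replicate 2 only (1.36%), and MCM2, MCM8 and MCM9 in neither DMSO library (28.4%). Members in neither DMSO library numbered 3, or 5 without DMSO replicate 2, where MCM6 and MCM10 joined them. The share of all protein-coding genes without that library was not computed. With each parental list limited to its best 816 peaks, the length of the shortest, MCM3, MCM4, MCM5 and MCM7 were the 4 members still called in both palbociclib libraries (background 3.82%), and 0 members were called with palbociclib alone (0.731%). No MCM promoter had a peak in the RB1 KO libraries, where 0.00501% of protein-coding genes had one under either treatment, or in the IgG2a library, where 1.95% had one. No library held a peak elsewhere within the 9 genes. Every gene with a promoter peak in both DMSO libraries (2.9% of the total) also had one in both palbociclib libraries.

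E2F sites were found at most of these promoters. The E2F consensus TTTNNCGC, with C or G at each N, was searched on both strands of a window with 300 bp before and 200 bp after the start of the canonical transcript, and 7 of 9 MCM promoters held it, compared with 6.29% of 19895 such windows. This window was chosen after the data were seen. MCM9 and MCM10 had no match there. The stretches below (hg38, gene strand, 5′ to 3′) show E2F matches in capitals. Each stretch held a match within 100 bp of a palbociclib summit. This was so in replicate 2 only for MCM8 and MCM9, and in replicate 1 only for the printed MCM5 pair. Position 0 is the canonical start. For MCM5 and MCM6 they are the exon-free bases upstream of the start, at chr22:35399940-35400133 and chr2:135876444-135876643, and for MCM3 those upstream of a longer transcript, at chr6:52284882-52284942. Sites inside or beside transcribed sequence are given as short windows for MCM2 (chr3:127598405-127598432), MCM7 (chr7:100101389-100101416), MCM8 (chr20:5950668-5950695) and MCM9 (chr6:118934591-118934618). In MCM2, MCM5 and MCM6 matches on opposite strands overlap each other, which gives the longer runs of capitals.
MCM2: gaaccactTTTCGCGCGAAAcctggttg
MCM3: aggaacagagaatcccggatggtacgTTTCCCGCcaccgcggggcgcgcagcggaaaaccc
MCM5: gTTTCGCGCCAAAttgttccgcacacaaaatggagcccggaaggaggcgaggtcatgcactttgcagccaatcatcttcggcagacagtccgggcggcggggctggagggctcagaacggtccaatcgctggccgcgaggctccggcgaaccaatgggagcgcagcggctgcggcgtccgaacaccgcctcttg
MCM6: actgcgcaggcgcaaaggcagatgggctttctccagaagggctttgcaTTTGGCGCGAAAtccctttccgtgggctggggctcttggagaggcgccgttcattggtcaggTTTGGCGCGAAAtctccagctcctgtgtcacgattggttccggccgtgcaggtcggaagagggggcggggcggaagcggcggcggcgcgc
MCM7: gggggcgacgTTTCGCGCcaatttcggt
MCM8: gatcactgaaGCGCCAAAaaagaattta
MCM9: cggcccggagGCGCGAAAtggcgcgccc

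MCM6 held 4 matches, as a pair of overlapping sites from −152 to −141 and another from −90 to −79. The latter pair lay closest to the Rb summits, with a match centred 15.5 bp from the summit of palbociclib replicate 2 and 55.5 bp from that of replicate 1. In MCM3 the match from −174 to −167 was centred 15.5 and 35.5 bp from the summits of palbociclib replicates 1 and 2. MCM5 had an overlapping pair from −199 to −188 and another match from −4 to 3, on either side of summits at −106 and −87. In MCM7 the match from −9 to −2 lay 56.5 and 23.5 bp from the summits, and its last base was also the first base of a CCAAT match. The MCM2 pair spanned 2 to 13, within the first exon. The MCM9 match, in capitals above, lay at 551 to 558 in the first intron of the canonical transcript. It was outside the window around that start but 63.5 bp from the summit of replicate 2. Another annotated protein-coding start of MCM9 lies farther downstream. The match was upstream of it, as were the summits of palbociclib replicates 1 and 2, at −271 and −192 bp from it.

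Within 100 bp of the strongest promoter summit, the E2F consensus was present at 5 of 9 MCM genes in palbociclib replicate 1 and at 8 of 9 in replicate 2, compared with 5.45% and 5.67% of the distinct promoter summits in those lists. The difference between the replicates came from MCM4, MCM8 and MCM9, whose summits shifted by 32, 106 and 79 bp between them. MCM10, which had no E2F match in either window, held a cAMP response element (CRE, TGACGTCA, in capitals below) from −29 to −22, and 2.96% of promoters held one. The CRE lay within the 200 exon-free bases upstream of MCM10, at chr10:13161358-13161557. It was outside the 100 bp windows around the MCM10 summits, which sat at 143 and 136 bp. Within those windows 0 members held a CRE in either replicate, compared with 1.04% and 1.11% of summits.
MCM10: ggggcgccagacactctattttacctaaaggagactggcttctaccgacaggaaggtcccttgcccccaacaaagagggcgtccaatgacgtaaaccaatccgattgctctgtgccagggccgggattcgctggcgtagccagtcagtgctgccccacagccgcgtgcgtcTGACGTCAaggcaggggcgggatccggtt

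Other promoter motifs were searched in the same windows. CCAAT, the site of NFY, occurred around the start of 8 of 9 MCM genes and 44.8% of all promoters, and GGGCGG, an SP/KLF site, at 8 of 9 and 69.0%. Within 100 bp of the summits, CCAAT was present at 5 of 9 members in each palbociclib replicate (MCM3 to MCM7 both times), compared with 24.6% and 25.4% of summits. GGGCGG was present there at 6 of 9 in each replicate, compared with 68.7% and 70.0%. The CHR element TTTGAA, through which the DREAM complex contacts cell cycle genes, was found around the start of MCM6 alone of the 9, compared with 17.0% of promoters. Within 100 bp of the summits it was found at MCM9 in palbociclib replicate 1, where 3.27% of summits had it, and at 0 members in replicate 2. These matches are descriptions of letters and not measured binding.

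**Figure D1:**
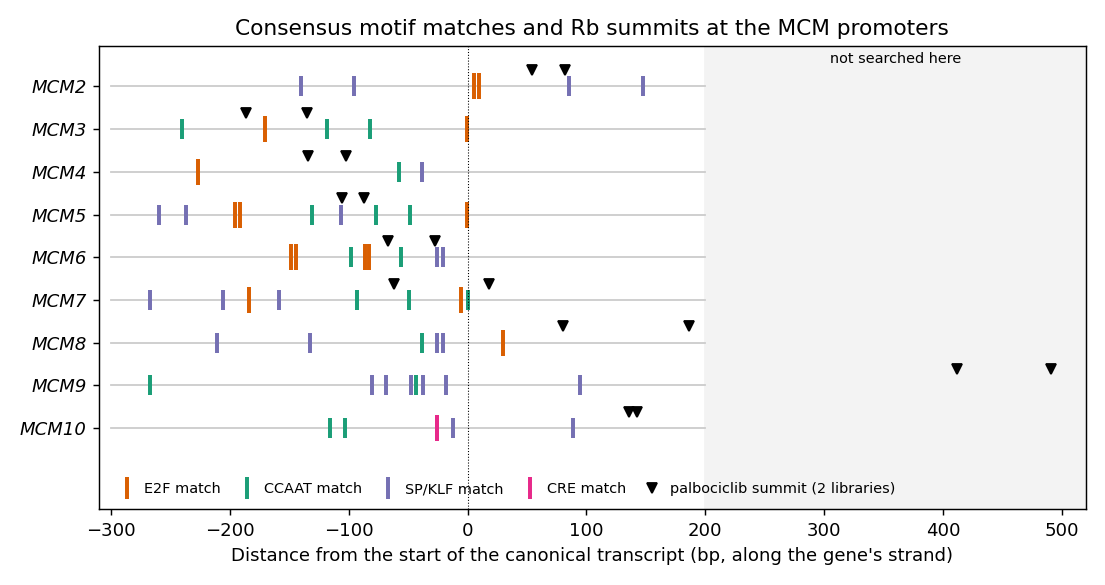
Positions of E2F, CCAAT, SP/KLF and CRE matches (coloured ticks) and of the palbociclib Rb summits (triangles, 1 per library) along the 9 MCM promoters, in bp from the start of the canonical transcript (0, dotted line). E2F matches lie within 300 bp upstream and 200 bp downstream of the start in MCM2 to MCM8, and the MCM9 summits sit at 412 and 491 bp, beyond the searched window.

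Fold enrichment, the ratio the authors' peak caller gives between the fragments stacked at a summit and the local background there, was used as the level of each peak. Fold enrichment and its p-value together give back the number of stacked fragments, called pileup here, and the background. With palbociclib, the mean fold enrichment of the 9 MCM promoters had a median of 14.8 and ran from 8.06 at MCM9 to 55.3 at MCM5, while the 6974 protein-coding genes called in both palbociclib lists had a median of 8.36. The subunits of the replicative ring, MCM2 to MCM7, had means from 12.8 to 55.3, and MCM8, MCM9 and MCM10 had means from 8.06 to 11.1. Single libraries of these sets overlapped, since MCM2 stood at 9.99 and MCM10 at 13.7 in palbociclib replicate 2.

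MCM5 had the highest Rb level of the family in each parental list. The gene lies on chromosome 22 from 35400134 to 35425431, on the plus strand. Its promoter peak stood at a fold enrichment of 19.0 and 27.5 in the DMSO replicates and of 52.4 and 58.2 in the palbociclib replicates, on pileups of 46 and 58 against 121 and 135 fragments. Every palbociclib value was above every DMSO value. In DMSO replicate 2 it ranked 1 by fold enrichment among 753 peaks on chromosomes, and in DMSO replicate 1 it ranked 5 among 922. The peak widened from 241 and 245 bp with DMSO to 843 and 684 bp with palbociclib, while the summit stayed between −129 and −87 bp from the canonical start.

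MCM7 was the other member with a strong peak in the DMSO libraries. It lies on chromosome 7 from 100092233 to 100101940, on the minus strand, and its peak also covers the start of AP4M1, a gene for an adaptor complex subunit that is transcribed in the opposite direction. Fold enrichment was 14.2 and 18.7 after DMSO and 37.2 and 35.5 after palbociclib, on pileups of 33 and 39 against 83 and 79 fragments. Both palbociclib values were again above both DMSO values. This was the widest MCM peak in each list, with 1071 and 1095 bp for DMSO and 1827 and 1781 bp for palbociclib, and it reached into the gene past several alternative starts of MCM7.

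MCM4 shares its upstream region with PRKDC, which encodes the catalytic subunit of the DNA-dependent protein kinase and points the other way. MCM4 lies on chromosome 8 from 47960185 to 47978160, on the plus strand. The DMSO replicates had a fold enrichment of 7.20 and 7.67 there and the palbociclib replicates of 32.4 and 32.3, on pileups of 18 and 17 against 84 and 82 fragments. The replicates nearly coincided within each treatment, and the treatments did not overlap. With DMSO the region was a single peak of 988 bp in replicate 1 and 3 separate peaks of 213, 240 and 165 bp in replicate 2. With palbociclib it was 1 continuous peak of 1512 and 1561 bp that covered both starts, so the share that belongs to each gene cannot be told apart.

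MCM3, on chromosome 6 from 52264014 to 52284881 on the minus strand, reached a fold enrichment of 10.9 and 7.36 in the DMSO libraries, against 46.1 and 24.6 in those with palbociclib. The treatments did not overlap, but the palbociclib replicates differed 1.88-fold. Their pileups differed less, 69 against 62 fragments, and the recovered background was 0.517 against 1.56. With DMSO the pileups were 22 and 14 fragments. Peak width was 276 and 478 bp with DMSO and 690 and 946 bp with palbociclib.

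**Figure D2:**
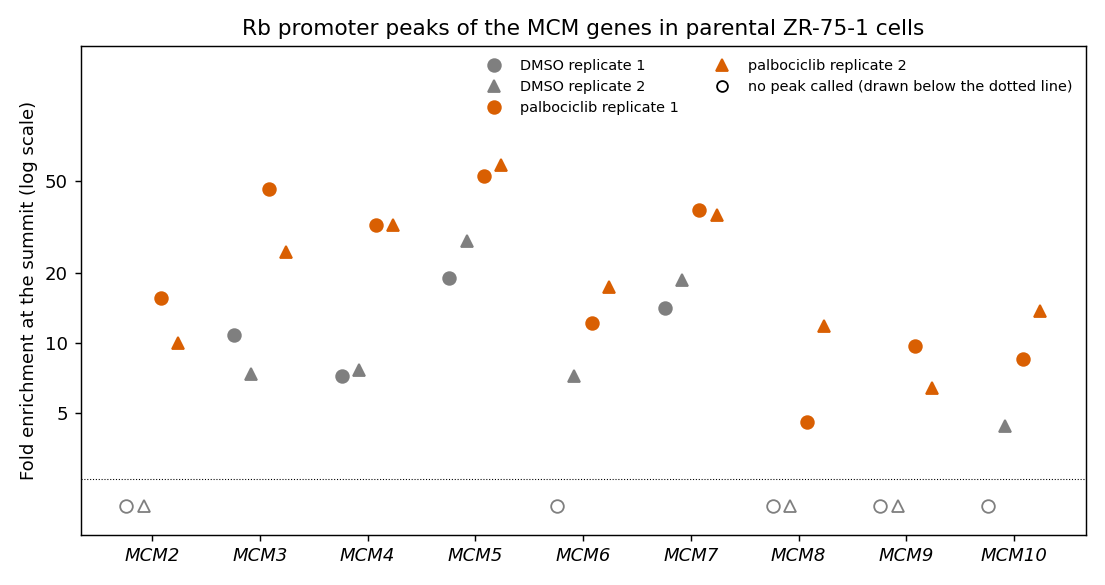
Fold enrichment of the strongest promoter peak of each MCM gene (log axis) in the 2 DMSO and 2 palbociclib libraries of parental cells, where open symbols under the dotted line mark libraries with no peak and carry no value. For MCM3, MCM4, MCM5 and MCM7 both orange symbols stand above both grey ones, and MCM5 is highest at 52.4 and 58.2.

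For these 4 genes the log2 ratio of fold enrichment, palbociclib over DMSO, was 1.91 ± 0.53 at MCM3, 2.12 ± 0.05 at MCM4, 1.27 ± 0.28 at MCM5 and 1.16 ± 0.20 at MCM7 (± SE, n = 2 per group). An exact permutation test of 2 libraries against 2 (two-sided) gave p = 0.333 for each gene, the smallest value this design allows, so no difference could pass a threshold of 0.05. The groups did not overlap at any of the 4 genes, nor at any of the 580 protein-coding genes called in all 4 parental lists (100%), so the absence of overlap says nothing particular about MCM genes.

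Against those 580 genes, MCM5 and MCM7 stood low. The median log2 ratio of the 580 was 1.88 (quartiles 1.64 and 2.13), and all 580 were above 0. The ratio of MCM7 exceeded that of 3.28% of these genes and the ratio of MCM5 exceeded that of 5.86%, compared with 52.4% for MCM3 and 73.3% for MCM4. When each value was divided by the median fold enrichment of the 580 genes in its own list, the log2 ratio became −0.75 at MCM7, −0.64 at MCM5, 0.0042 at MCM3 and 0.21 at MCM4, so the direction turned at MCM5 and MCM7 under this scaling. Both had high levels already with DMSO, where 1 of the 580 genes, CDC6, stood above MCM5. The 6 genes with a higher DMSO level than MCM7, leaving out MCM5, had log2 ratios from 1.24 to 2.01, and 5 of the 6 were below the median of the 580. Among them, CCNE2 and NDUFAF6 had identical values under both treatments (log2 ratio 1.58), so they do not count as separate peaks. The ratio subtracts the DMSO level, so picking genes by a high DMSO level favours low ratios by construction. Whether the ratio depends on the level was not tested. Since MCM5 and MCM7 were singled out after their values were seen, their positions are descriptions.

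**Figure D3:**
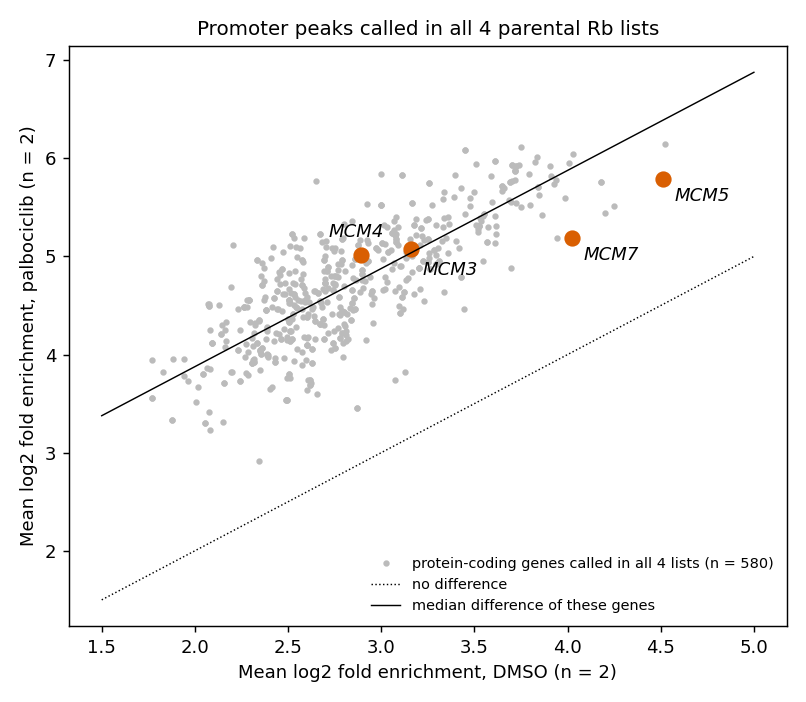
Mean log2 fold enrichment with palbociclib against DMSO (n = 2 libraries each) for 580 protein-coding genes with a promoter peak in all 4 parental lists (grey) and the 4 MCM genes among them (orange). The solid line lies 1.88 above the dotted line of no difference, and MCM5 and MCM7 lie to the right and under it while MCM3 and MCM4 lie close to it.

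MCM6 and MCM10 had a DMSO peak in replicate 2 only. MCM6, on chromosome 2 from 135839626 to 135876443 on the minus strand, had a fold enrichment of 7.19 on 12 fragments with DMSO and of 12.2 and 17.5 on 22 and 33 fragments with palbociclib. A further small peak of 163 bp, with a fold enrichment of 3.96 on 5 fragments, was called 521 bp downstream of the start in palbociclib replicate 1 alone. MCM10, on chromosome 10 from 13161558 to 13211110 on the plus strand, had a fold enrichment of 4.42 on 8 fragments with DMSO and of 8.56 and 13.7 on 20 and 27 fragments with palbociclib. Both genes had higher values in each palbociclib library than in the DMSO library where they were called. With 1 DMSO value no test was possible. All 580 protein-coding genes called in all 4 parental lists had both palbociclib values above both DMSO values (100%). The share among genes called in 1 DMSO library was not computed.

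MCM2, MCM8 and MCM9 had a peak with palbociclib alone. MCM2, on chromosome 3 from 127598410 to 127622436 on the plus strand, had a fold enrichment of 15.7 and 9.99 on pileups of 45 and 35 fragments, and its peak also reached the promoter region of the divergent gene TPRA1. MCM9, on chromosome 6 from 118813442 to 118935162 on the minus strand, had 9.69 and 6.43 on 18 and 12 fragments. MCM8, on chromosome 20 from 5950652 to 5998977 on the plus strand, had 4.57 and 11.8 on 8 and 21 fragments. Both MCM8 peaks were also counted for the promoters of the tRNA methyltransferase gene TRMT6 and of ENSG00000286235. The 2.58-fold gap between the MCM8 replicates was the widest of the 9 genes. MCM8 was no longer called in both palbociclib libraries at a −log10 q of at least 5, or when all lists were held to the p cutoff of the strictest Rb list, a cutoff added after the data were seen. Under both settings MCM10 lost its DMSO call as well, so the 3 members called with palbociclib alone were then MCM2, MCM9 and MCM10. Shares of all protein-coding genes under these settings were not computed. In a list, a peak needed a pileup of at least 6 fragments (DMSO) or 5 (palbociclib) where the background was lowest, and more elsewhere. A missing DMSO call therefore places the level under the limit set by the local background, which is unknown where no peak was called. At MCM2 the background recovered with palbociclib was 1.94 and 2.61, above the lowest in those lists. A missing call cannot tell a low level of Rb from none. Where the background was lowest, the limit was 8 fragments in the RB1 KO library with DMSO and 6 in that with palbociclib.

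The RB1 KO lists held 4 (DMSO) and 5 (palbociclib) peaks on chromosomes, of which the nearest to an MCM start lay 15237195 bp from MCM5. The IgG2a list held 1724 peaks on chromosomes, and the nearest to an MCM start lay 121658 bp from MCM10. If the IgG2a library was the control used in peak calling, its lack of peaks at called Rb sites is partly built in. The sequencing depth of the libraries is unknown, and the lowest background recovered in each of the 6 Rb lists ranged from 0.446 to 0.655.

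Peaks sat close to the start of the gene and differed in width. With palbociclib the summit lay a median of 75 bp from the nearest annotated TSS of the gene, or 118 bp from the start of the canonical transcript. It lay upstream of that start in both libraries for MCM3, MCM4, MCM5 and MCM6, upstream or in the first exon for MCM7, in the first exon or intron for MCM2, in the first exon for MCM8, and in the first intron for MCM9 and MCM10. The MCM9 summits were the farthest downstream of the canonical start, at 412 and 491 bp. They lay upstream of the nearest annotated start of MCM9, at −271 and −192 bp. Mean peak width had a median of 567 bp over the 9 genes, compared with 552 bp over the 6974 genes called in both palbociclib lists, and ran from 324 bp at MCM8 to 1804 bp at MCM7. For the 4 genes called throughout, mean width with palbociclib was 1.67 (MCM7) to 3.14 (MCM5) times that with DMSO. The MCM4 value rests on the 165 bp strongest peak alone in DMSO replicate 2. Peaks were wider throughout the palbociclib lists, with median widths on chromosomes of 459 and 445 bp, compared with 264 and 233 bp in the DMSO lists.

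**Figure D4:**
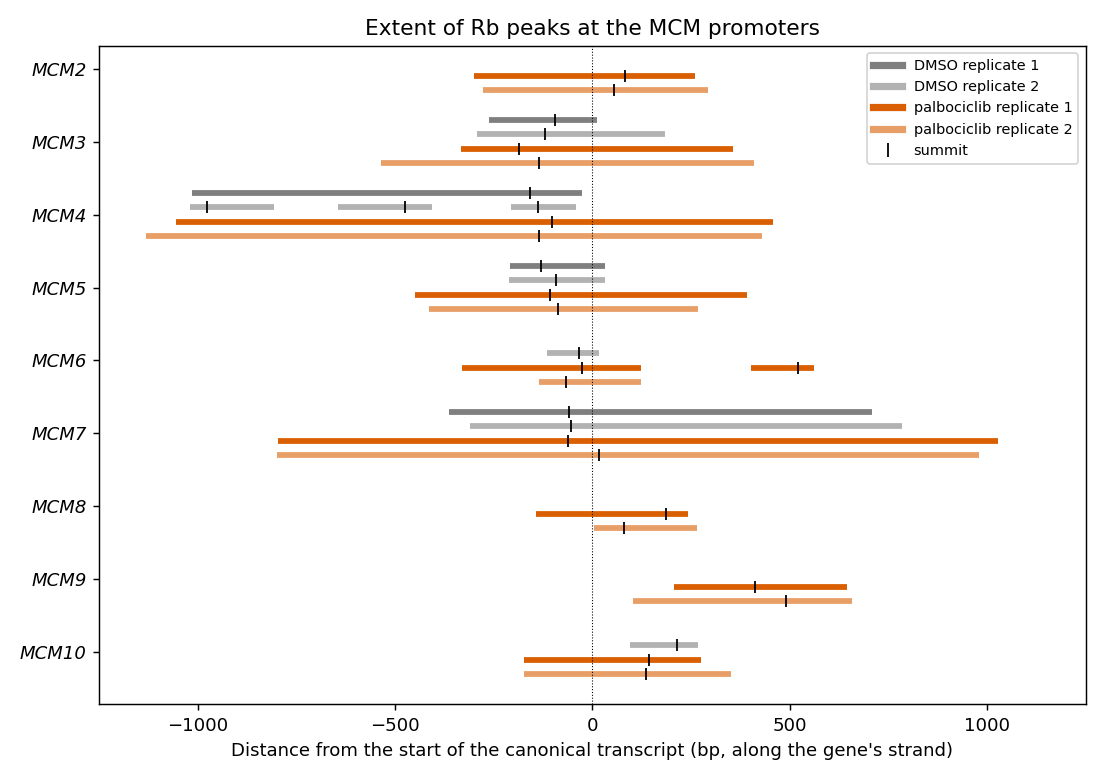
Extent of each called Rb peak (bars) and its summit (black ticks) in bp from the start of the canonical transcript of the 9 MCM genes, with 1 row per parental library. MCM4 and MCM7 are covered over 1512 to 1827 bp with palbociclib, and the 3 grey bars of MCM4 in DMSO replicate 2 merge into 1 orange bar.

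Most other genes that work with the MCM proteins also carried Rb. Of 28 such genes, 10 work in helicase loading, 12 in helicase activation, 4 with the moving helicase and 2 with MCM8 and MCM9. Of the 28, 26 were called at the promoter in each palbociclib library (background 34.9%). Of these, 7 were also called in both DMSO libraries (background 2.9%), 8 in 1 (background 3.66%) and 11 in none (background 28.4%). The genes of loading, activation and the moving helicase were all called in both palbociclib libraries. The 7 genes called in both DMSO libraries were the origin recognition subunit gene ORC2, the loader gene CDC6, the licensing inhibitor gene GMNN, the GINS subunit gene GINS2, and TIMELESS, CLSPN and WDHD1, whose products travel with the helicase. CDC6 had the highest level, at a fold enrichment of 22.9 and 23.1 in the DMSO replicates and 66.1 and 75.8 in the palbociclib replicates, and ORC5 the lowest of those called, at 4.60 and 4.41 after palbociclib. HROB and MCMDC2, the partners and relatives of MCM8 and MCM9 on the list, had no promoter peak in any parental library. The mean palbociclib fold enrichment of the 26 genes had a median of 14.4, beside 14.8 for the MCM genes.

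Among genes called in both palbociclib lists, the gene outside the family whose fold enrichment over the 4 parental lists came closest to the median MCM profile (smallest Euclidean distance in log2 values, with 0 where no peak was called) was WNK1, which encodes a protein kinase. Like MCM6 and MCM10, it was called in DMSO replicate 2 and in both palbociclib libraries. Its fold enrichment was 7.43 with DMSO and 16.0 and 16.9 with palbociclib.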

How the data were processed

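Sample titles gave the groups and replicate numbers. Per the methods of the study and the submitters' processing notes, BBDuk was used for trimming and Bowtie2 2.3.4.1 for alignment to hg38, reads in blacklisted regions or mitochondrial DNA were discarded, duplicates were kept, and the authors called peaks in each library separately with MACS2 2.2.7.1 against an IgG control (q-value cutoff 0.05). The control of the IgG2a list is not given in the sources used here. The deposited lists give fold enrichment (a ratio of pileup plus 1 to background plus 1), −log10 p and −log10 q per summit, and a score that repeats −log10 q as a whole number and was not used.

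Python 3.11.15 with NumPy 2.4.6 and SciPy 1.17.1 was used. Peaks overlapping a promoter window by at least 1 bp were counted, and the strongest by fold enrichment gave a gene's level. Pileups were the whole numbers that matched both deposited values under the Poisson law of MACS2 (largest misfit 0.0015 in −log10 p), and the procedure was tested on simulated data. Group comparisons of single genes used exact permutation tests over libraries. Motif windows came from the hg38 sequence. The named genes were the 9 members, and from a list of 28 genes that work with the MCM proteins those called in both DMSO libraries, those not called, and the highest and lowest. Members and lists were chosen with earlier results of these data known. Depth is unknown, so no counting intervals are given.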

Additional observations from a re-analysis of the deposited data

How the results depend on the processing

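Restricting starts to protein-coding transcripts, narrowing the window to 1000 bp upstream and 100 bp downstream, or asking for a −log10 q of at least 5 kept each MCM count within 1.5 times its value, although at that q the gained genes were MCM2, MCM9 and MCM10 instead of MCM2, MCM8 and MCM9. With parental lists limited to their best 816 peaks, 4 MCM genes (MCM3, MCM4, MCM5 and MCM7) were called in both palbociclib libraries (background 3.82%). Under that limit 0 were gained (background 0.731%), and MCM2, MCM6, MCM8, MCM9 and MCM10 were not called in both palbociclib libraries. With 1 library left out, the number called in the DMSO group ranged from 4 to 6, that in the palbociclib group stayed at 9, and the gained number ranged from 3 to 5. Shares of all protein-coding genes were computed only for the main setting and for equal list length. The median log2 ratio of the 4 genes called throughout was 1.59, and ranged from 1.40 to 1.66 with 1 library left out. It was 1.60 on recovered pileups. Divided by the list medians of the 580 genes called throughout, it became −0.32, with −0.64 at MCM5 and −0.75 at MCM7. The median summit distance was 118 bp from canonical starts instead of 75 bp from the nearest start. With the replicate number as a block the median ratio was 1.59, as without it, and the smallest possible paired p is 0.5. Deviations of same-numbered libraries had a correlation of 0.065 across the 580 genes, and the labels do not say that a number marks a shared day or culture.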
